A study of Mus musculus with 9 samples.

Results

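The histone cluster genes are the mouse genes that encode the linker histone H1 and the core histones H2A, H2B, H3 and H4 and that lie side by side in a few genomic clusters. They were taken by name: every gene whose symbol in the count files starts with Hist1h, Hist2h, Hist3h or Hist4h was a member, and 1 gene marked as a pseudogene was left out. This gave 64 members of the 32137 genes in the files, with 6 of class H1, 17 of H2A, 16 of H2B, 12 of H3 and 13 of H4. Cluster Hist1 on chromosome 13 holds 51 of them, Hist2 on chromosome 3 holds 10, Hist3 on chromosome 11 holds 2 and Hist4 on chromosome 6 holds 1 (GRCm38).

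RNA was sequenced from sorted cells of differentiated mouse bile duct organoids, which are epithelial cultures grown from bile duct tissue. All cultures came from 1 male animal of mixed genetic background with the genotype Axin2CreERT2+/-; R26-LSL-tdTom+/-, in which a tamoxifen-activated Cre under the control of the Wnt target gene Axin2 switches on the red protein tdTom. After 2 to 4 days of expansion and 11 days of differentiation, every culture received 3 uM dexamethasone and 500 nM 4-OHT (the active form of tamoxifen) for the last 24 h, with or without 100 ng/ml Rspo1, an R-spondin protein that amplifies Wnt signalling. The 3 groups were tdTom-negative cells of control organoids (Untreated_Axin2neg, here untreated), tdTom-negative cells of Rspo1-treated organoids (Rspo1_Axin2neg, here Axin2-negative) and tdTom-positive cells of the same treatment (Rspo1_Axin2pos, here Axin2-positive). Each group had 1 library at passages 5, 6 and 10. The libraries are thus repeats of 1 organoid line. With passage in the model, p-values of a group comparison measure how much the differences between groups varied from passage to passage of that line. In bulk RNA, fewer cells that make a transcript and less of it per cell cannot be told apart.

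Most cluster histone genes are transcribed in S phase, when newly copied DNA has to be packed. Their transcripts are short, lack introns, and end in a stem-loop instead of a poly(A) tail. The stem-loop is bound by the protein Slbp, and the transcript is cut just behind it by a complex that contains the U7 small nuclear RNA. Some members, among them Hist1h1c, Hist1h2bc and Hist2h2be, are known also to be made as polyadenylated transcripts, which non-dividing cells use. Whether the sequencing libraries selected poly(A) RNA or removed ribosomal RNA is not given in the sources used here.

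The stem-loop was searched for as the letters GGNNCTNTTNAGNNCC on the sense strand in the first 100 bases behind the annotated stop codon (GENCODE transcripts, GRCm38). It was found in 42 of the 62 protein-coding members (67.7%) and in 7 of 21637 other protein-coding genes (0.0324%). It began 21 to 58 bases behind the stop codon, with a median of 31. Of the 20 members without a match, 15 had fewer than 60 annotated bases there, so the letters could lie beyond the annotated end. The 6 versions are printed to show how similar the 3 prime ends of the classes are, with the arms that pair with each other in capitals and the loop in lower case.
version in 24 members of classes H1, H2A, H2B and H3: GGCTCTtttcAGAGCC
version in 6 members of classes H1, H2B and H3: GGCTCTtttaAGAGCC
version in 1 member of class H2A: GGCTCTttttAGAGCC
version in 7 members of class H4: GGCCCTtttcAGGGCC
version in 2 members of class H4: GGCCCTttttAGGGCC
version in 2 members of class H4: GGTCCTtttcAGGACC
All 11 H4 members with a match carried arms that no member of another class carried. A poly(A) signal (AATAAA or ATTAAA in the last 40 bases of any protein-coding transcript) was found in 16 of the 62 members (25.8%), compared with 75.9% of the other protein-coding genes. Transcripts with fewer than 40 bases behind the stop codon were not searched, and 11 members had no base annotated there. The median number of bases behind the stop codon was 95 in the members and 920 in the other genes.

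Promoters were matched for 57 members in RefSeq (GRCm38.p6), as 250 bases before to 50 bases behind the transcription start. Searched on both strands, CCAAT was in 84.2% of member promoters and 37.8% of other promoters, and TATAAA in 57.9% and 14.1%. ATTTGCAT, the octamer known from H2B promoters, was in 19.3% of member promoters and 1.72% of others, with 6 of 15 H2A, 5 of 14 H2B and no H1, H3 or H4 promoter holding it. AAACACA, known as the H1 box, was in 5 of 6 H1 promoters, in 12.3% of all member promoters and in 7.13% of other promoters. The H4 promoters stood apart in CCAAT, which 25.0% of them held, against 100% in each of the other classes. The 150 bases before the start are printed for 4 members on which results below turn and for Hist1h2ac, whose stretch lies upstream of Hist1h2bc, with these motifs in capitals (CCAAT also as ATTGG, ATTTGCAT also as ATGCAAAT).
Hist1h1c, chr13:23738657-23738806, plus strand: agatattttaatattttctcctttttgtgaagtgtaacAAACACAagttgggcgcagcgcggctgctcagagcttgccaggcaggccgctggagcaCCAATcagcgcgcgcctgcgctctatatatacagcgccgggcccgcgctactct
Hist1h1e, chr13:23622559-23622708, minus strand: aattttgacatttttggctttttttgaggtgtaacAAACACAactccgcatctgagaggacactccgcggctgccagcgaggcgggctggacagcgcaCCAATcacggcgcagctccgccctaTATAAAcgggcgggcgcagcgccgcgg
Hist1h2ac, chr13:23683960-23684109, minus strand: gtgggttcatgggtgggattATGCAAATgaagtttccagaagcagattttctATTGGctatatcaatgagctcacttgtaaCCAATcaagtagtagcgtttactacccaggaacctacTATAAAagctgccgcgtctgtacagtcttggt
Hist3h2a, chr11:58954535-58954684, plus strand: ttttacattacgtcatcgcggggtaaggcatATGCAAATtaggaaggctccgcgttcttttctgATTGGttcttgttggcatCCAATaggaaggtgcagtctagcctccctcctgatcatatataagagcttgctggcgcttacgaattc
Hist1h4d, chr13:23581418-23581567, plus strand: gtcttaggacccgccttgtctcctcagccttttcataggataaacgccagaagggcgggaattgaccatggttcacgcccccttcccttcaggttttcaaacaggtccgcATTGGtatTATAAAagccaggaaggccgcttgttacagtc
Hist1h1c and Hist1h1e both hold AAACACA and, nearer the start, CCAAT. The Hist1h2ac stretch lies between 2 genes: Hist1h2ac and Hist1h2bc are transcribed away from each other, and their annotated 5 prime ends are 250 bases apart, so it lies upstream of both. It ends at 23684109, short of the Hist1h2bc start at 23684199, so the bases nearest that start are not printed. No promoter was matched for Hist1h2bc itself.

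The libraries held 23423979 to 37351448 counts each, and the 64 members together held 24175 counts over all 9. Bile duct markers (7 genes such as Krt19 and Epcam) summed to 6981 to 9968 CPM (counts per 1000000 of the library's total, adjusted by the TMM method) in each library. Hepatocyte markers (7 genes) summed to 327 to 724 CPM, the immune markers in the files (5 of 6) to 5.51 to 23.3, the mesenchymal ones (4 of 6) to at most 0.806 and the endothelial ones (3 of 4, with Cdh5 at 0 in every library) to at most 0.215. Cd68 alone made up nearly all of the immune sum (22.16 of 22.25 CPM in the untreated library of passage 5). Each other immune marker was at most 0.134 CPM in any library, so this sum rests on 1 gene. Ttr and Hnf4a made up most of the hepatocyte sum, while Cyp2e1, Cyp3a11 and Serpina1c were at most 0.236 CPM in any library. The bile duct sum was 6981 to 7155 CPM in the 3 Axin2-positive libraries, below all 6 others (8089 to 9968). Among the markers tested, Krt19 (-1.06, adjusted p = 0.00139, against untreated and -0.76, adjusted p = 0.00471, against Axin2-negative cells), the hepatocyte marker Alb (-1.07, adjusted p = 0.0132, and -0.66, adjusted p = 0.0482) and Cd68 of the immune list (-0.71, adjusted p = 0.0153, and -0.61, adjusted p = 0.0148) were lower in Axin2-positive cells in both comparisons, while Sox9 was higher than in untreated cells (1.34, adjusted p = 7.78e-05). Of the 7 bile duct markers, 2 were called higher and 1 lower than in untreated cells (6.44% and 6.77% of all genes). Against Axin2-negative cells 0 were higher and 2 lower (21.5% and 17.4%). Spp1 was at 1332, 1621 and 1899 CPM in Axin2-positive and 723, 1435 and 840 CPM in untreated libraries at passages 5, 6 and 10. The part of these differences in the results below was not tested. Libraries differed in RNAs that carry no poly(A) tail. A list of 14 of these, such as Rmrp and Rpph1, the RNA parts of the RNase MRP and RNase P enzymes, and Rn7sk, a regulator of transcription elongation, summed in untreated libraries to 10.1, 12.5 and 14.1 CPM at passages 5, 6 and 10. It summed to 15.5, 80.1 and 11.0 CPM in Axin2-negative libraries and to 5.86, 214 and 106 CPM in Axin2-positive ones. The libraries at passage 6 with Rspo1 and the Axin2-positive library at passage 10 thus stood above the others.

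In these libraries, most counts of histone cluster genes came from 4 members. Since the library type is not known, shares of the cells' histone transcripts cannot be read from this. Hist1h1c (linker histone), Hist1h2bc, Hist2h2be (both H2B) and Hist3h2a (H2A) had at least 100 counts in every library, a selection made after their values were seen, and held 84.9% of all member counts. Their summed level was 71.9, 98.5 and 62.7 CPM in the untreated libraries at passages 5, 6 and 10, 86.1, 81.3 and 89.5 CPM in the Axin2-negative ones and 50.1, 60.2 and 53.6 CPM in the Axin2-positive ones. All 3 Axin2-positive libraries were below all 6 others. The other 60 members together had 9.39, 10.9 and 4.78 CPM in untreated, 9.58, 17.3 and 5.17 CPM in Axin2-negative, and 8.10, 38.2 and 13.8 CPM in Axin2-positive libraries. Here the groups overlapped, and the passage 6 Axin2-positive library was the highest. Of the 59 of these 60 members with any count, 45 had their highest CPM in that library, and 0 of the 4 abundant members did. That library also had the highest sum of non-polyadenylated RNAs and of the 20 G2/M genes listed below (1349 CPM). The sum of the 24 S phase genes listed below was highest in the Axin2-positive library of passage 5 (1441 CPM).

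**Figure D1:**
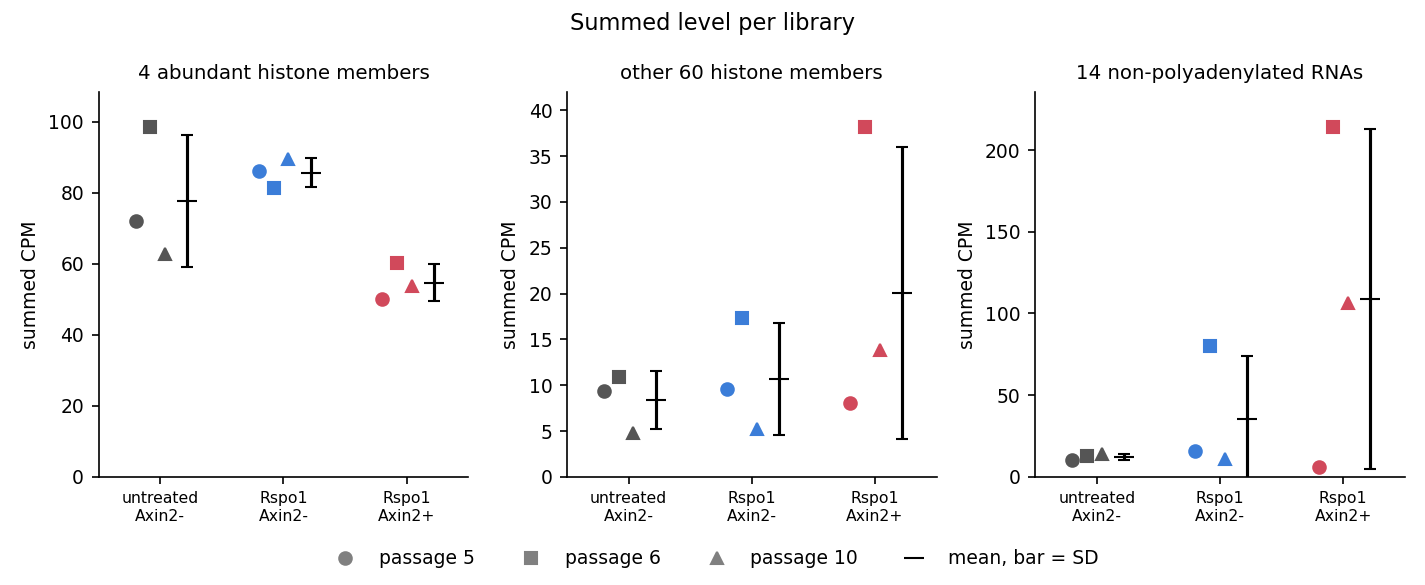
Summed CPM (vertical axis, from 0) of the 4 abundant histone members, the other 60 members and the 14 non-polyadenylated RNAs in each library, by group (horizontal axis) and passage (symbol), with the mean and SD of 3 libraries (bars that would reach below 0 are cut there). The abundant members are lowest in the 3 Axin2-positive libraries (50.1 to 60.2 CPM), while the other 60 members and the non-polyadenylated RNAs both peak in the Axin2-positive library at passage 6.

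Members could be tested only where their counts were high enough, and 20 of the 64 were (3 of class H1, 2 of H2A, 5 of H2B, 4 of H3 and 6 of H4). The other 44 had at most 65 counts in any library. Counts were compared by edgeR's quasi-likelihood test with group and passage in the model, and called at a Benjamini-Hochberg adjusted p under 0.05 over all 17011 genes tested. In Axin2-positive against untreated cells, 6 of the 20 were called, 4 higher and 2 lower, where 13.2% of all genes tested were called (6.44% higher and 6.77% lower). The linker histone genes Hist1h1d and Hist1h1e, the H4 gene Hist1h4d and the H2B gene Hist2h2bb were higher, and Hist1h2bc and Hist3h2a were lower. In Axin2-positive against Axin2-negative cells, 5 of the 20 were called, where 38.9% of all genes tested were (21.5% higher and 17.4% lower): Hist1h1e and Hist2h2bb were higher, and Hist1h1c, Hist1h2bc and Hist3h2a were lower. In Axin2-negative against untreated cells, 3 of the 20 were called, all higher, where 35.5% of all genes tested were (15.5% higher and 20% lower): Hist1h1c, Hist1h4d and Hist2h2bb. The last 2 shares of members are below those of all genes. The filter bears on these counts: 7 of the 20 members (Hist1h3d, Hist1h3f, Hist1h4d, Hist1h4h, Hist1h4j, Hist1h4k and Hist2h2bb) had no untreated library at the filter's minimum and entered only through Rspo1 libraries, which favours a higher value against untreated cells. They include Hist1h4d and Hist2h2bb, which are 2 of the 4 higher calls in Axin2-positive and 2 of the 3 in Axin2-negative cells. Hist2h3c2 had no Axin2-positive library at that minimum. Hist1h3d, Hist1h3f, Hist1h4j, Hist1h4k and Hist2h2bb reached it in 2 Axin2-positive libraries and 1 Axin2-negative library, and Hist1h2ac in 3 and 1. This favours a higher value between the Rspo1 groups. Hist2h3c2 and Hist3h2ba reached it in more Axin2-negative than Axin2-positive libraries.

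The median log2 fold change of the 20 tested members was 0.22 in Axin2-positive against untreated cells, 0.63 against Axin2-negative cells and 0.23 between Axin2-negative and untreated cells, beside -0.00, 0.03 and -0.01 over all genes tested. The 3 medians are a description only. The 7 members above were let in by their Rspo1 libraries, and the filter also bore unequally on the 2 Rspo1 groups. The medians against untreated cells stayed at 0.22 and 0.23 with Hist2h2bb, which had no count in untreated cells, set to its lower bound. The 3 comparisons share libraries. Leaving out 1 library at a time gave medians of 0.0076 to 0.67, 0.094 to 0.75 and 0.0020 to 0.37. Without the filter, 13, 7 and 5 of the 63 members with a count were called, where 9.26%, 22.5% and 21.2% of 31128 genes were, and the medians over these 63 were 1.85, 1.04 and 0.72. Without passage in the model the counts of called members were 0, 1 and 0 of 20, and the shares of all genes called also fell, to 5.21%, 24.3% and 21.9%. With the log2 sum of the non-polyadenylated RNAs as a further term, a choice made after the data were seen, the counts were 0, 2 and 1, where 5.31%, 30% and 29.9% of all genes were called, and the medians were -0.13, -0.00 and -0.07. At an unadjusted p under 0.05, edgeR had 5, without passage, and 3, with that term, of the 20 in Axin2-positive against untreated cells, and 1 without passage in Axin2-negative against untreated cells. The DESeq2 test, with passage, called 5, 4 and 2 (14.7%, 39% and 36.1% of all genes).

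**Figure D2:**
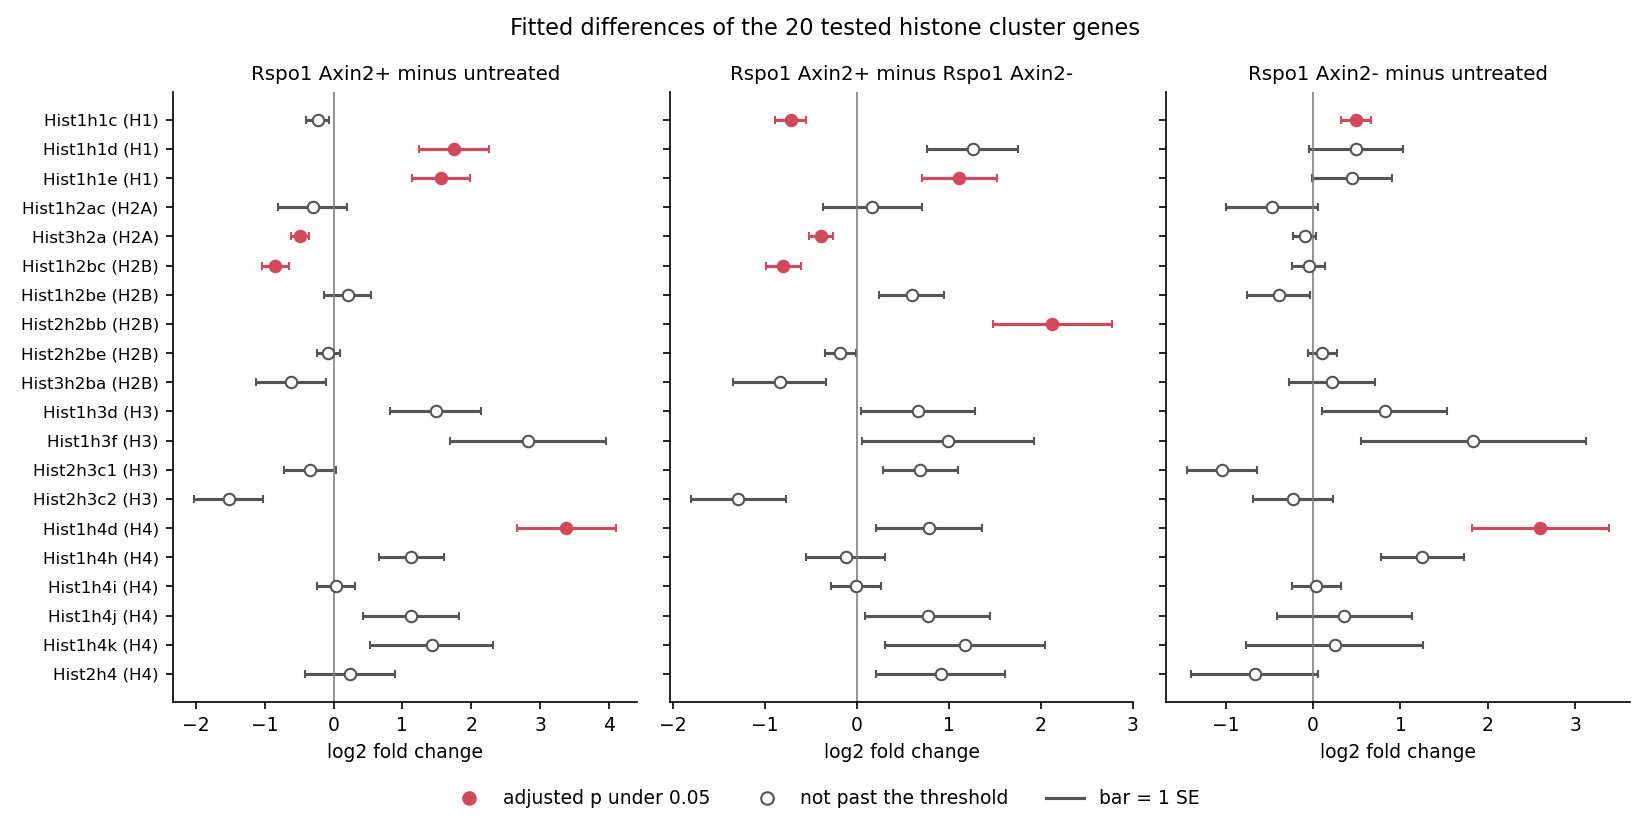
Fitted log2 fold change (horizontal axis) with 1 SE for each of the 20 tested histone cluster genes (vertical axis, class in brackets) in the 3 group comparisons. Filled red points passed an adjusted p of 0.05. Hist2h2bb is left out of the comparisons with untreated cells, where it had no count. Hist1h2bc and Hist3h2a lie left of 0 in both comparisons of Axin2-positive cells, and Hist1h4d lies furthest right in both comparisons with untreated cells.

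Class H1, the linker histones that sit on the DNA between nucleosomes, was dominated by Hist1h1c (chr13:23738808-23740367, plus strand, 1 exon). Its CPM was 20.6, 25.0 and 28.8 in untreated cells at passages 5, 6 and 10, 33.0, 23.9 and 50.3 in Axin2-negative cells and 18.0, 20.5 and 25.1 in Axin2-positive cells. At each passage the Axin2-positive library was the lowest of the 3, although the ranges of the groups overlapped. Hist1h1c was lower in Axin2-positive than in Axin2-negative cells (log2 fold change -0.72, SE 0.17, adjusted p = 0.00697). It was higher in Axin2-negative than in untreated cells (log2 fold change 0.49, SE 0.17, adjusted p = 0.0412). Both calls were lost with a correction for GC content and transcript length (-0.38, adjusted p = 0.101, and 0.17, adjusted p = 0.483). The first call was also lost without the Axin2-negative library of passage 5 (adjusted p = 0.0553) or passage 10 (0.0513). The second call was lost without the untreated library of passage 5 (0.159) or 10 (0.167), or the Axin2-negative library of passage 5 (0.193) or 10 (0.192). Against untreated cells, the Axin2-positive level of Hist1h1c did not pass the test (-0.23, SE 0.17, adjusted p = 0.442).

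Hist1h1d (chr13:23553262-23560686, plus strand) and Hist1h1e (chr13:23620629-23622558, minus strand) encode further linker histone subtypes and were far less abundant. Hist1h1d had 19, 31 and 2 counts in untreated libraries at passages 5, 6 and 10, 22, 40 and 4 in Axin2-negative ones and 28, 112 and 37 in Axin2-positive ones. Hist1h1e had 14, 13 and 12 counts, 15, 28 and 8 counts, and 27, 85 and 29 counts in the same order. At every passage both genes had their highest count of the 3 groups in the Axin2-positive library, and for Hist1h1e the Axin2-positive and untreated libraries did not overlap. The log2 fold change against untreated cells was 1.75 (SE 0.51, adjusted p = 0.0438) for Hist1h1d and 1.56 (SE 0.42, adjusted p = 0.0328) for Hist1h1e. Against Axin2-negative cells it was 1.12 (SE 0.41, adjusted p = 0.0493) for Hist1h1e and 1.26 (SE 0.49, adjusted p = 0.0650) for Hist1h1d. Both calls against untreated cells were lost without the Axin2-positive library of passage 6 (adjusted p = 0.207 and 0.236), without that of passage 10 (0.153 and 0.0975), without the untreated library of passage 6 (0.131 and 0.140), and with the non-polyadenylated RNAs in the model (0.82, adjusted p = 0.615, and 0.93, adjusted p = 0.457). That of Hist1h1d was lost also without the untreated library of passage 10 (0.109). Leaving out any 1 of the 6 libraries ended the Hist1h1e call against Axin2-negative cells (adjusted p 0.0554 to 0.345). The exons of Hist1h1e share 25.7% of their bases with Hist1h2be and another gene on the same strand, so reads there could not be assigned by position alone.

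The remaining H1 genes were too low for the test. Hist1h1a and Hist1h1b, subtypes known from dividing cells, had 1, 0 and 0 and 0, 2 and 0 counts in untreated libraries at passages 5, 6 and 10. They had 5, 8 and 0 and 2, 10 and 3 counts in Axin2-negative libraries, and 5, 40 and 19 and 2, 65 and 8 counts in Axin2-positive ones. Every 75-base stretch of both genes is unique among annotated transcripts, so none of these stretches has an identical copy in another annotated transcript. Over the 3 libraries, Hist1h1a had 64 counts in Axin2-positive and 1 in untreated cells, a ratio of 58.6 with a 95% exact interval of 10.2 to 2352. For Hist1h1b the sums were 75 and 2, a ratio of 34.4 with an interval of 9.19 to 289 (both intervals cover counting error only). Hist1h1t, the testis-specific linker histone, had at most 3 counts in any library.

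**Figure D3:**
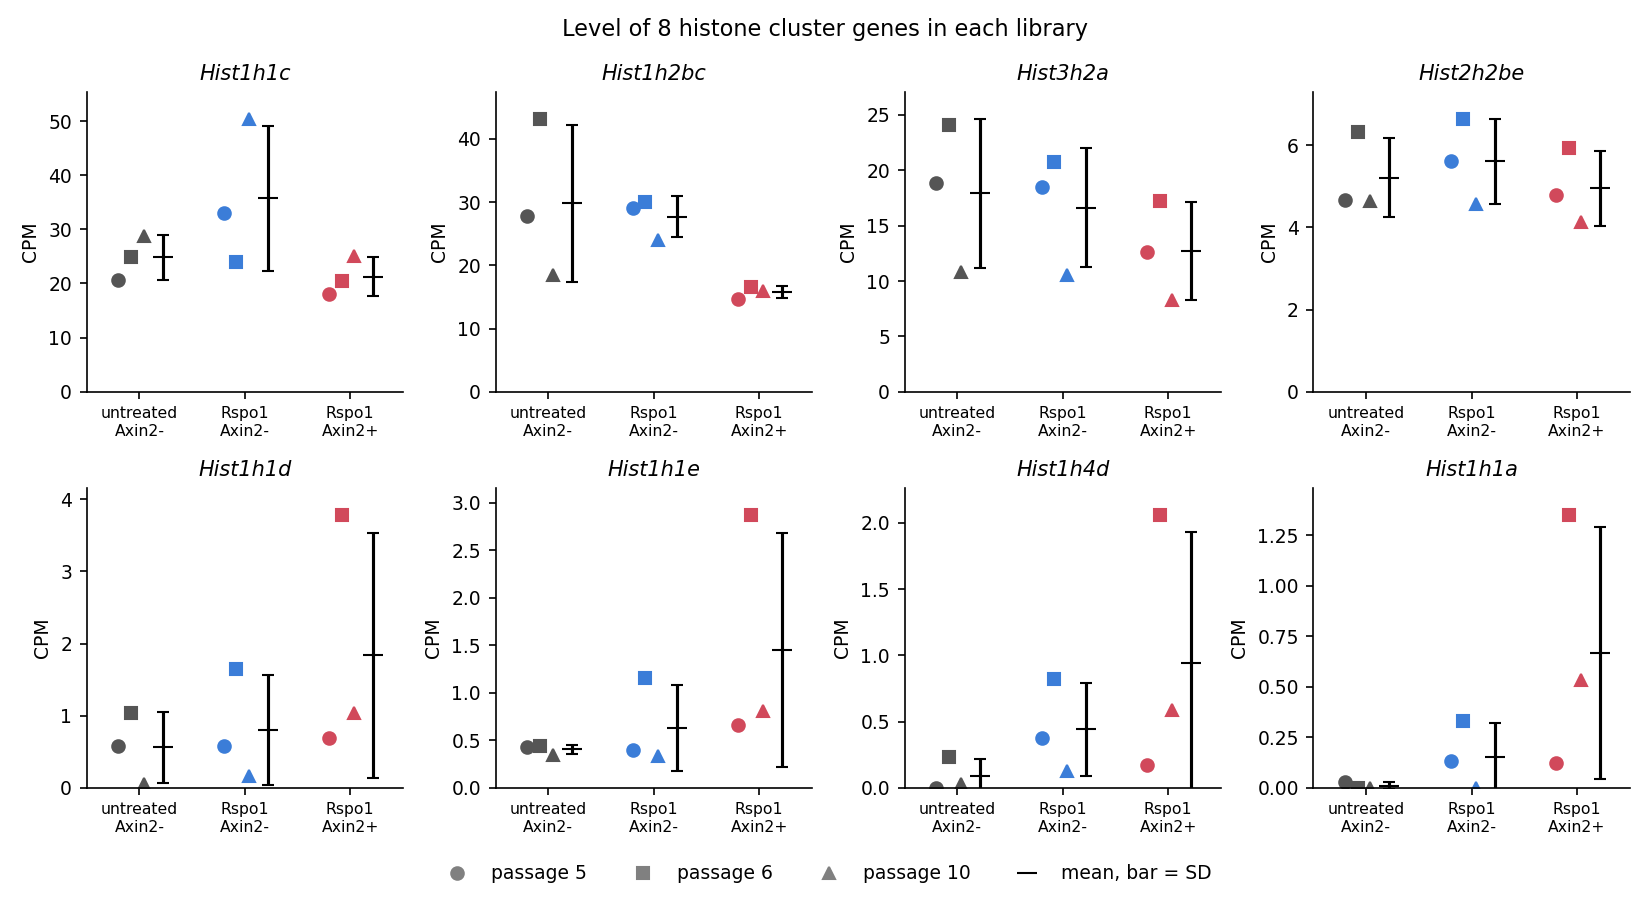
CPM (vertical axis, from 0, with its own scale in each panel) of 8 histone cluster genes in each library, by group (horizontal axis) and passage (symbol), with the mean and SD of 3 libraries (bars that would reach below 0 are cut there). The 4 abundant genes in the upper row are not highest in the Axin2-positive libraries, whereas Hist1h1d, Hist1h1e, Hist1h4d and Hist1h1a in the lower row all peak in the Axin2-positive library at passage 6.

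Class H2A, which pairs with H2B in the nucleosome, was dominated by Hist3h2a (chr11:58954685-58956830, plus strand, 1 exon). Its CPM was 18.9, 24.1 and 10.8 in untreated cells at passages 5, 6 and 10, 18.5, 20.8 and 10.5 in Axin2-negative cells and 12.6, 17.2 and 8.31 in Axin2-positive cells. The groups overlapped, and at each passage the Axin2-positive library was the lowest. The log2 fold change in Axin2-positive cells was -0.48 (SE 0.13, adjusted p = 0.0342) against untreated and -0.39 (SE 0.13, adjusted p = 0.0373) against Axin2-negative cells. The call against untreated cells was lost when any 1 of the 6 libraries was left out (adjusted p 0.0598 to 0.176), while the fold change stayed between -0.52 and -0.42. The call against Axin2-negative cells remained without the Axin2-negative library of passage 6 (adjusted p = 0.0310) and was lost without each of the other 5 (0.0708 to 0.183). Both calls of Hist3h2a were lost without passage in the model, and also with the non-polyadenylated RNAs in it. Exons of Trim17 and Gm44313, annotated on either strand, overlap 33.0% of the exon bases of Hist3h2a, and the strand setting of the counting is not given in the sources used here. The next most abundant H2A member, Hist1h2ac, had 23, 21 and 4 counts in untreated, 16, 8 and 6 in Axin2-negative and 12, 16 and 11 in Axin2-positive libraries, with overlapping groups, and passed no test between them. Hist1h2ae, with 5, 2 and 4, then 9, 7 and 4, then 3, 17 and 0 counts, was not tested.

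Class H2B held the largest difference among abundant members. Hist1h2bc (chr13:23684199-23692908, plus strand) had 903, 1289 and 641 counts in untreated libraries at passages 5, 6 and 10, 1091, 729 and 568 in Axin2-negative ones and 597, 491 and 572 in Axin2-positive ones. Its CPM was 29.8 ± 12.4 in untreated cells, 27.7 ± 3.19 in Axin2-negative cells and 15.8 ± 0.957 in Axin2-positive cells (SD, n = 3). All Axin2-positive libraries, between 14.7 and 16.6 CPM, were below all untreated and Axin2-negative ones, of which the lowest was 18.4. Among the 64 members it was the only one whose Axin2-positive libraries all lay below the untreated ones, where 7.96% of the 31128 genes with a count did so. The log2 fold change was -0.85 (SE 0.20, adjusted p = 0.0146) against untreated and -0.80 (SE 0.19, adjusted p = 0.00846) against Axin2-negative cells. Between Axin2-negative and untreated cells it was -0.05 (SE 0.19, adjusted p = 0.863).

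The Hist1h2bc call against untreated cells was lost without passage in the model (adjusted p = 0.0721), with the non-polyadenylated RNAs in it (-0.78, adjusted p = 0.154), and without the untreated library of passage 5 (0.0523) or the Axin2-positive library of passage 5 (0.0806) or 6 (0.133). The call against Axin2-negative cells remained without passage in the model (adjusted p = 0.0422) and with the non-polyadenylated RNAs (-0.76, adjusted p = 0.0249). It was lost without the passage 5 library of either group (0.0591 for Axin2-negative and 0.0537 for Axin2-positive). Hist1h2bc is annotated with 2 exons and 742 bases behind the stop codon, with no stem-loop match in the searched window.

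Hist2h2be (chr3:96221119-96223738, plus strand), an H2B gene whose transcript has 2192 bases behind the stop codon and no stem-loop match, differed little between groups. It was at 4.68, 6.32 and 4.63 CPM in untreated libraries at passages 5, 6 and 10, 5.62, 6.62 and 4.57 in Axin2-negative and 4.78, 5.94 and 4.14 in Axin2-positive libraries. Its mean CPM was 5.21 ± 0.962 in untreated, 5.60 ± 1.03 in Axin2-negative and 4.95 ± 0.910 in Axin2-positive cells (SD, n = 3). The groups overlapped, and its log2 fold changes were -0.08, -0.18 and 0.11 with SEs of 0.16 to 0.17 and adjusted p of 0.837, 0.412 and 0.652. All of its 75-base stretches are unique.

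Hist2h2bb (chr3:96269752-96270132, plus strand) had 0 counts in all untreated libraries, 0, 10 and 2 in Axin2-negative and 0, 36 and 31 in Axin2-positive libraries at passages 5, 6 and 10. It was called higher in all 3 group comparisons, with adjusted p of 0.00385 against untreated, 0.0333 against Axin2-negative cells and 0.0228 between the latter groups. Summed over 3 libraries and set against a floor of 3 counts per group, its level was at least 20.5-fold higher in Axin2-positive and at least 4.54-fold higher in Axin2-negative than in untreated cells. These values are uncertain, because all of its exon bases also belong to 2 other annotated genes and none of its 75-base stretches is unique. The call against Axin2-negative cells was lost without each library except the Axin2-negative one of passage 6 (adjusted p 0.0547 to 0.246). DESeq2 did not call it in either comparison of Axin2-positive cells (adjusted p = 0.240 and 0.590). Between Axin2-negative and untreated cells the call was lost without the untreated library of passage 6 (0.0631) or 10 (0.0591) or the Axin2-negative library of passage 6 (0.131). The libraries that held its counts were those at passages 6 and 10, as for the non-polyadenylated RNAs in Axin2-positive cells.

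Among low H2B members, Hist1h2bj had 2, 0 and 1 counts in untreated, 2, 4 and 2 in Axin2-negative and 14, 19 and 8 in Axin2-positive libraries. Its Axin2-positive libraries lay above both other groups at all passages. Only 49.6% of its 75-base stretches are unique. The tested members Hist1h2be and Hist3h2ba passed no comparison between groups. Hist1h2be had 24, 35 and 17 counts in untreated, 16, 22 and 12 in Axin2-negative and 22, 51 and 24 in Axin2-positive libraries, and Hist3h2ba had 4 to 34 counts per library.

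Classes H3 and H4 form the tetramer at the centre of the nucleosome and were low throughout. The H3 members summed to 2.15, 2.94 and 0.748 CPM in untreated, 1.70, 2.96 and 0.762 in Axin2-negative and 1.65, 5.73 and 2.66 in Axin2-positive libraries at passages 5, 6 and 10. The 4 tested H3 members did not pass in any comparison between groups, the lowest adjusted p being 0.0649 (Hist2h3c1 in Axin2-negative against untreated cells). Their values pointed both ways: in Axin2-positive against untreated cells the log2 value was 1.48 for Hist1h3d (SE 0.65, adjusted p = 0.180) and -1.52 for Hist2h3c2 (SE 0.50, adjusted p = 0.0717). Hist2h3c2 had 19, 27 and 2 counts in untreated, 18, 15 and 3 in Axin2-negative and 9, 6 and 2 in Axin2-positive libraries. Hist1h3d had 7, 6 and 1 counts, then 7, 6 and 8, then 8, 24 and 12 in the same order. Hist2h3c1, the H3 member with the highest mean CPM, had 38, 45 and 14 counts in untreated, 19, 20 and 4 in Axin2-negative and 36, 22 and 20 in Axin2-positive libraries. All of its exon bases belong to another annotated gene as well.

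The H4 members summed to 3.20, 3.11 and 1.70 CPM in untreated, 3.75, 5.35 and 2.03 in Axin2-negative and 2.46, 10.1 and 4.06 in Axin2-positive libraries. Hist1h4d (chr13:23581598-23582735, plus strand, 1 exon) was called higher in both Rspo1 groups, through whose libraries alone it reached the test. It had 0, 7 and 1 counts in untreated libraries at passages 5, 6 and 10, 14, 20 and 3 in Axin2-negative and 7, 61 and 21 in Axin2-positive libraries. At every passage the untreated library was the lowest. The log2 fold change against untreated cells was 3.38 (SE 0.72, adjusted p = 0.00955) in Axin2-positive and 2.60 (SE 0.78, adjusted p = 0.0246) in Axin2-negative cells, and 0.78 (SE 0.58, adjusted p = 0.308) between the Rspo1 groups. The first call was lost without the Axin2-positive library of passage 6 (adjusted p = 0.11). The second was lost without the untreated library of passage 5 (0.0710) or 10 (0.0641) or the Axin2-negative library of passage 5 (0.0743). Both were lost with the non-polyadenylated RNAs in the model (2.19, adjusted p = 0.358, and 1.84, adjusted p = 0.138). Of its 75-base stretches 96.3% are unique.

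The most abundant H4 member by count was Hist1h4i, with 57, 59 and 35 counts in untreated, 71, 45 and 25 in Axin2-negative and 57, 82 and 32 in Axin2-positive libraries. The groups overlapped, and its log2 fold changes between groups were 0.03, -0.01 and 0.04 with SEs of 0.27 to 0.28. Hist1h4h had 7, 7 and 8 counts in untreated, 21, 18 and 8 in Axin2-negative and 11, 23 and 19 in Axin2-positive libraries. In CPM its untreated libraries lay below those of both Rspo1 groups, while the adjusted p were 0.154 and 0.0617. Over all 64 members, Axin2-positive libraries did not overlap with untreated ones in 11 that were higher and 1 that was lower, where 7.69% and 7.96% of genes with a count did so. The higher ones included Hist1h1a, Hist1h1e, Hist1h2bj, Hist1h3a and Hist1h3c. Against Axin2-negative libraries they did not overlap in 4 higher members and 1 lower member (15.7% and 12.3% of genes), and Axin2-negative against untreated ones in 6 higher and 1 lower (10% and 12.6%). Most had few counts: 13 of the 64 members had no count in any untreated library, 8 in any Axin2-negative library and 3 in any Axin2-positive library.

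The 4 abundant members all had a long annotated 3 prime end. Of the 15 members with 700 or more bases behind the stop codon, 12 were tested, compared with 5 of the 15 with more than 100 and fewer than 700 bases and 3 of the 32 with 100 or fewer. Per length, the differences were smaller: the median of the members' mean level was 0.315, 0.248 and 0.193 FPKM (the authors' length-scaled fragment values) in these 3 sets. Levels per length reached 21.0 FPKM for Hist1h2bc, 17.4 for Hist1h1c, 7.30 for Hist3h2a, 2.22 for Hist1h4i and 1.99 for Hist2h2be.

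**Figure D4:**
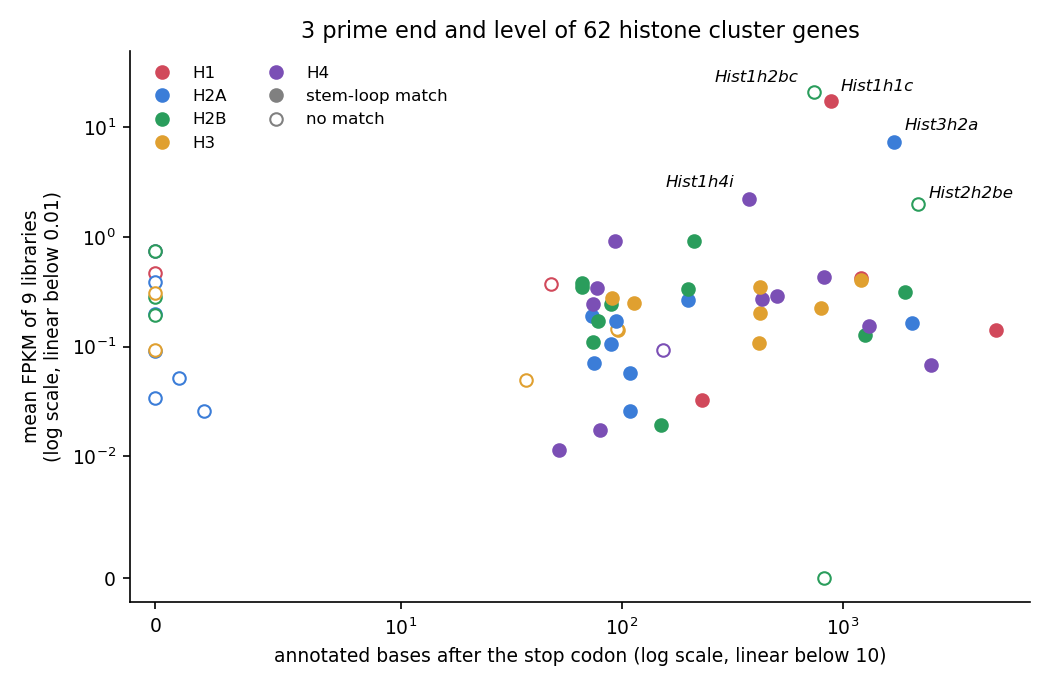
Mean FPKM of 9 libraries (vertical axis) against annotated bases behind the stop codon (horizontal axis) for 62 protein-coding histone cluster genes, by class (colour) and stem-loop match (filled). Both axes are logarithmic and linear near 0. Hist1h2bc, Hist1h1c, Hist3h2a and Hist2h2be, the 4 abundant members, all have over 700 bases there, while the median of the 15 members with such ends is 0.315 FPKM.

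Summed levels were compared between members with long and with short ends. The long-end set holds the 4 abundant members, which made up most of its sum in every library. They had 71.9 of 76.6 CPM in the untreated library of passage 5 and 60.2 of 74.1 CPM in the Axin2-positive library of passage 6. The sum of this set thus mostly follows these 4 genes, and the part of 3 prime end length was not tested. The 15 members with 700 or more bases summed to 76.6, 104.2 and 64.5 CPM in untreated libraries at passages 5, 6 and 10, 89.4, 88.0 and 91.7 in Axin2-negative and 54.0, 74.1 and 58.9 in Axin2-positive libraries. The 32 members with 100 or fewer bases summed to 33, 30 and 26 counts in untreated, 77, 116 and 25 in Axin2-negative and 69, 462 and 198 in Axin2-positive libraries. In CPM these were 1.02, 1.003 and 0.748, then 2.05, 4.77 and 1.06, then 1.70, 15.6 and 5.54. For this set all untreated libraries lay below all others. The non-polyadenylated RNAs given above were likewise highest in the Axin2-positive library at passage 6.

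The non-polyadenylated RNAs differed between libraries by more than the histone members did. Rmrp was at 0.431, 0.836 and 0.864 CPM in untreated, 1.17, 7.98 and 0.508 in Axin2-negative and 0.419, 38.2 and 14.6 in Axin2-positive libraries. Of the 8 RNAs of the list that were tested, 3 were higher in Axin2-positive than in untreated cells (Rmrp, Rpph1 and Scarna2), where 6.44% of all genes tested were. The median of the 8 log2 values was 1.91. Against Axin2-negative cells 1 was higher (median 1.09), where 21.5% of all genes tested were. Between Axin2-negative and untreated cells the median was 0.88. With this list in the model, the calls of Hist1h1c and Hist1h2bc in Axin2-positive against Axin2-negative cells remained (adjusted p = 0.0261 and 0.0249), as did that of Hist1h1c between Axin2-negative and untreated cells (0.0423). No other call between groups remained, neither those of the abundant Hist3h2a nor any of a less abundant member.

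Passage was compared over all 3 groups. At passage 10 against passage 5, 3 of the 20 tested members were called, where 9.07% of all genes tested were (4.57% higher and 4.5% lower): Hist3h2a fell (-0.74, SE 0.13, adjusted p = 0.00771), Hist2h3c2 fell (-2.40, SE 0.57, adjusted p = 0.0261), and Hist2h2bb, which had no count in any passage 5 library, was higher (adjusted p = 0.0217). In CPM, Hist3h2a was lower at passage 10 (8.31 to 10.8) than at passage 5 (12.6 to 18.9) in all groups. At passage 6 against passage 5, 1 member was called, where 2.49% of all genes tested were (1.16% higher): Hist2h2bb was higher (adjusted p = 0.0225). All 20 tested members had a log2 fold change above 0 in this comparison, with a median of 0.78 beside 0.00 over all genes tested, and Hist1h4d had 2.45 (SE 0.64, adjusted p = 0.0738). The median of the 8 tested non-polyadenylated RNAs was 2.02 here, and with their sum in the model the members' median was 0.25 and edgeR called 0, with 0 at an unadjusted p under 0.05. With that term 0.952% of all genes were called. Of the 20 G2/M genes listed below, 16 were called higher at passage 6 than at passage 5 (median 1.26), where 1.16% of all genes tested were. Of the 24 S phase genes listed below, 0 were higher and 1 was lower (median -0.31), where 1.33% of all genes tested were lower. The part of these differences in the members' values was not tested. Without passage 6 altogether, the counts of called members in the group comparisons were 3, 4 and 2, where 12.4%, 46.9% and 47% of all genes were called. With passage 6 they were 6, 5 and 3, where 13.2%, 38.9% and 35.5% of all genes were called.

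The genes that serve histone transcripts were listed apart from the members. All list values come from the main fit, and the alternatives were not examined for them. Of all genes tested, 6.44% were called higher and 6.77% lower in Axin2-positive against untreated cells. Between Axin2-negative and untreated cells the shares were 15.5% and 20%. With the GC and length offset, 22.8% of all genes were called between the Rspo1 groups and 20.2% between Axin2-negative and untreated cells. Of 12 genes for transcription and 3 prime processing of histone mRNA, 1 was higher in Axin2-positive than in untreated cells, and it was Slbp, whose protein binds the stem-loop. Slbp was at 30.5, 27.3 and 30.2 CPM in Axin2-positive and 21.1, 20.2 and 19.9 CPM in untreated libraries, which did not overlap (log2 difference 0.52, SE 0.12, adjusted p = 0.0169). Against Axin2-negative cells 7 of the 12 were higher and 2 lower, where 21.5% and 17.4% of all genes tested were. Among them were Npat, the activator of histone gene transcription (1.30, SE 0.16, adjusted p = 0.000342), its partner Casp8ap2 (1.96, SE 0.20, adjusted p = 0.000208), the U7 particle's partner Zfp473 (1.05, SE 0.29, adjusted p = 0.0148) and the cleavage factor Cpsf2 (0.67, SE 0.12, adjusted p = 0.00152). Lsm10, a protein of the U7 particle, fell by 0.51 (SE 0.16, adjusted p = 0.0287). Npat was at 10.2, 9.46 and 7.58 CPM in Axin2-negative libraries and between 18.8 and 25.4 CPM in all others. It was lower in Axin2-negative than in untreated cells (-1.06, SE 0.16, adjusted p = 0.000727), as were Casp8ap2 (-1.37) and Cpsf2 (-0.55).

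Histone chaperones, which carry histones to DNA, had 5 of 16 genes higher in Axin2-positive against untreated cells. Asf1b, the H3-H4 chaperone known from dividing cells, rose by 2.52 (SE 0.25, adjusted p = 5.75e-05), the assembly factor subunit Chaf1b by 1.71 (SE 0.19, adjusted p = 0.000111) and Nasp, which holds the soluble histone pool, by 0.89 (SE 0.11, adjusted p = 0.000279). Against Axin2-negative cells 6 were higher (21.5% of all genes tested), and between Axin2-negative and untreated cells 6 were higher and 2, Atrx and Supt16, lower. Of 11 replication-independent histone genes, whose transcripts are polyadenylated, 4 were higher in Axin2-positive than in untreated cells (6.44% of all genes tested). They were the centromere histone Cenpa (2.79), the linker histone H1fx (2.43), H2afx (1.08), which is phosphorylated at DNA breaks, and the macroH2A gene H2afy2 (0.95). H3f3a and H3f3b, the H3.3 genes, had log2 fold changes of -0.05 and -0.04 (SE 0.13 and 0.14). The median of the 11 was 0.15 in this comparison. In Axin2-negative against untreated cells 6 of the 11 were higher and 0 lower (median 0.64), where 15.5% and 20% of all genes tested were. Between the Rspo1 groups 2 were higher and 2 lower in Axin2-positive cells (median -0.05), where 21.5% and 17.4% were.

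The cell cycle lists gave the setting. Of 24 S phase genes, 23 were higher in Axin2-positive against untreated cells (median log2 value 1.45), and of 20 G2/M genes 20 were (median 3.02). Against Axin2-negative cells 15 and 20 were higher (medians 0.49 and 1.61), and between Axin2-negative and untreated cells 18 and 14 were higher (0.98 and 1.33). Of all genes tested, 6.44%, 21.5% and 15.5% were higher in these comparisons, in the same order. The abundant members Hist1h2bc and Hist3h2a were thus lower in the cells in which nearly all listed S phase genes were higher.

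**Figure D5:**
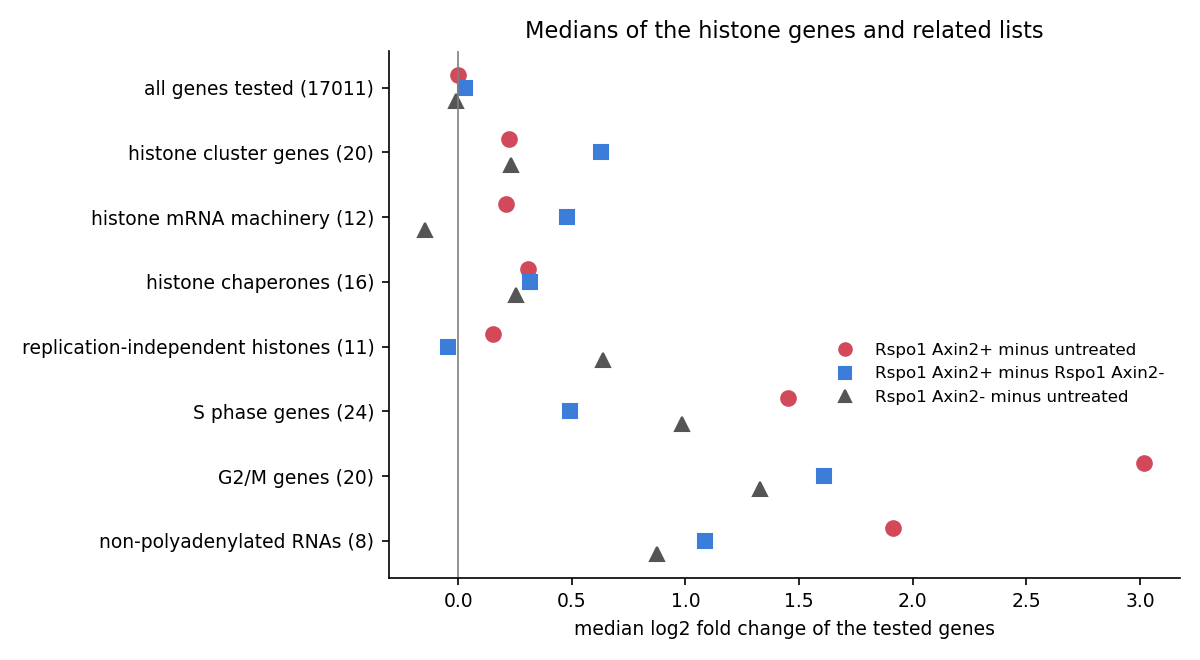
Median log2 fold change (horizontal axis) of the tested genes of each list (vertical axis, number of tested genes in brackets) in the 3 group comparisons (symbols). The 20 tested histone cluster genes lie between 0.22 and 0.63, below the S phase medians against untreated cells (1.45 and 0.98) and below all G2/M medians. In Axin2-positive against Axin2-negative cells their median (0.63) lies above that of the S phase genes (0.49). It ranged from 0.094 to 0.75 with 1 library left out, so this order is not settled. Without the filter the histone medians were higher, as given above. The one in Axin2-positive against untreated cells then lay above the S phase median of the main fit (1.45).

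The authors' deposited table of their own comparisons (15807 genes) lists 23 of the members, with values from their analysis of the same libraries. In Axin2-positive against untreated cells the authors' deposited table gives Hist1h1a a log2 fold change of 5.46 (adjusted p = 0.00258), Hist1h1b 4.71 (0.00241), Hist1h4d 3.82 (0.00228) and Hist1h2bc -0.83 (0.00173). Hist1h1a and Hist1h1b had too few counts for the edgeR test above. In Axin2-positive against Axin2-negative cells the authors' deposited table gives Hist1h1c -0.72 (adjusted p = 0.000158), Hist1h2bc -0.83 (1.13e-06), Hist3h2a -0.41 (0.0348) and Hist1h2bb 3.44 (0.0213). Hist1h2bb had 0, 5 and 0 counts in untreated, 0, 4 and 0 in Axin2-negative and 4, 30 and 6 in Axin2-positive libraries, so this last value rests on few counts. Several calls made above do not pass 0.05 there. Against untreated cells the authors' deposited table gives adjusted p of 0.0900 for Hist1h1e, 0.0577 for Hist3h2a and 0.368 for Hist2h2bb in Axin2-positive cells, and 0.0689 for Hist1h1c in Axin2-negative cells. Between the Rspo1 groups the authors' deposited table gives 0.0623 for Hist1h1e and 0.0610 for Hist2h2bb. It gives no adjusted p for Hist1h4d and Hist2h2bb in Axin2-negative against untreated cells, and Hist1h1d is not among its 23 members.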

How the data were processed

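RNA from 9 libraries (100 ng of total RNA, single-end reads of 75 bases) was analysed. Per the submitters' processing notes, reads were handled with Trimmomatic 0.35, FastQC 0.11.2, STAR 2.5.1b, featureCounts and DESeq2 on GRCm38. Annotation, strand setting and the treatment of multiply aligned reads are not given in the sources used here. The authors deposited raw counts and FPKM per gene and library, and a table with log2 fold changes and adjusted p-values of their own comparisons. All 9 count columns were used.

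Counts were filtered with filterByExpr (minimum count 10, total 15), scaled by TMM and tested with edgeR 4.0.16 (quasi-likelihood, group and passage as terms, 4 residual degrees of freedom, R 4.3.3), after the procedure was tested on simulated data. CPM are counts per 1000000 of the TMM-scaled library size. Levels of FPKM are the authors' values, averaged over 9 libraries. The passage number comes from the labels and pairs the libraries: deviations from group means correlated at 0.123 to 0.573 for same-passage libraries (9 pairs) and at -0.476 to 0.0826 for the others (18 pairs). Values in every library are given for the 3 most abundant members per class and for the 5 largest called rises and falls per comparison. Members named beyond this rule were chosen after their values were seen. Members and gene lists were chosen with earlier results of these data known.

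Alternatives were DESeq2 1.42.0 and its size factors, upper-quartile scaling, no filter, a GC and length offset, no passage term, only the 6 libraries compared, and leaving out each library. Fits without passage 6 and with the non-polyadenylated RNA sum as a covariate (3 residual degrees of freedom) were chosen after seeing the data.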

Additional observations from a re-analysis of the deposited data

How the results depend on the processing

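The numbers of called members rested on the pairing by passage. With no replicate block they fell from 6 to 0 (Axin2-positive against untreated), from 5 to 1 (against Axin2-negative) and from 3 to 0 (Axin2-negative against untreated), and the last median moved from 0.23 to 0.38. With only the 6 libraries compared, the first and last counts were 1 and 0, with medians of -0.14 and 0.023 (3 of 20 at an unadjusted p under 0.05 by edgeR where 0 were called). In these fits 11.4% and 26.7% of all genes were called. Without the filter on low counts, 63 members and 31128 genes were tested in place of 20 and 17011, and 13, 7 and 5 members were called, and 5 and 7 for passages 10 and 6 against passage 5. For the passages, 8.94% and 3.83% of all genes were called without the filter. The medians over these 63 were 1.85, 1.04 and 0.72, and 1.34 for passage 6. The GC and length offset moved the medians of the last pair of group comparisons to 0.34 and 0.11. Without passage 6 the first count was 3 (12.4% of all genes), that of passage 10 was 6 (24.6%), and the medians of the last pair were 0.18 and 0.080. With the non-polyadenylated RNAs as covariate the counts were 0, 2, 1, 1 (passage 10) and 0 (passage 6), and the medians -0.13, -0.0022, -0.074, -0.60 and 0.25. For the passages, 5.09% and 0.952% of all genes were called with the covariate.

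Leaving out each library gave 1 to 5, 0 to 4 and 0 to 2 called members in the group comparisons, and 0 to 4 and 0 to 3 for passages 10 and 6. The shares of all genes called were 6.31% to 12.6%, 21.6% to 41.3% and 19.2% to 43.4%, and 2.25% to 20.9% and 0.541% to 4.86%. The counts were 1 without the Axin2-positive library of passage 6, 0 (4 at an unadjusted p under 0.05) without the Axin2-negative library of passage 5, and 0 (4) without the untreated library of passage 10, all by edgeR. The medians ranged from 0.0076 to 0.67, 0.094 to 0.75 and 0.0020 to 0.37, and from -0.72 to -0.019 and 0.33 to 1.11.

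Of the values of single named members, 529 of 665 kept direction and side of the threshold, 89 lost a call, 6 gained one and 41 changed sign, none of the last being a called value. Against untreated cells, Axin2-positive values of Hist1h2be and Hist1h4i were -0.014 and -0.25 without passage 6 and -0.038 and -0.16 with the covariate. Against Axin2-negative cells, Hist1h4i was 0.063 without the block. The offset gave Hist1h4i 0.23, Hist1h4h 0.15 and Hist1h2ac -0.026, and Hist1h2ac was -0.16 without passage 6. Between Axin2-negative and untreated cells, Hist1h2bc was 0.030 with upper-quartile scaling, 0.012 without the filter, 0.056 with the offset and 0.24 without passage 6. Hist3h2a was 0.011 with the offset and 0.00029 without passage 6. Hist1h4i was -0.20 with the offset and -0.061 with the covariate, Hist1h1d -0.087 with the covariate, and Hist1h1e -0.021 and Hist2h3c2 0.031 without passage 6. With each library left out, in Axin2-positive against untreated cells Hist1h2ac ranged from -0.76 to 0.16, Hist1h2be from -0.0093 to 0.46, Hist1h4i from -0.28 to 0.22 and Hist2h3c1 from -0.70 to 0.032. Against Axin2-negative cells, Hist1h2ac ranged from -0.17 to 0.63, Hist1h4h from -0.43 to 0.27 and Hist1h4i from -0.34 to 0.19. Between Axin2-negative and untreated cells, Hist1h1e ranged from -0.15 to 0.85, Hist1h2bc from -0.29 to 0.23, Hist1h4i from -0.11 to 0.26, Hist2h3c2 from -0.44 to 0.068 and Hist3h2a from -0.15 to 0.0047. The causes were not tested.

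Low counts limit what can be said of the 44 untested members, and reads of near-identical copies limit 29 members in which under 50% of 75-base stretches are unique.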
